A study of Mus musculus with 3 samples.

Results

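The junctions of DNA-PKcs-/- B cells were divided by the place of the joined end, and the resulting 5 regions were compared with each other within the genotype. Sε, Sγ1 and Sμ, the switch (S) regions of IgE, IgG1 and IgM, were taken as the authors' count sheets define them. Other IgH is the IgH locus less these 3 regions, and non-IgH is the remaining genome. DNA-PKcs-/- replicate 5 is 1 of the 3 samples given for the series and held 842 junctions. The rest of the pool is the authors' DNA-PKcs-/- pool of 12662 junctions less replicate 5, which left 11820. Replicate 5 had 123 junctions in Sε, 211 in Sγ1, 287 in Sμ, 96 in other IgH and 125 in non-IgH. The rest had 533, 7113, 3240, 372 and 562 in the same order.

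The DNA-PKcs-/- cells lacked the catalytic subunit of DNA-dependent protein kinase. The 2 other samples came from cells homozygous for the PQR allele of DNA-PKcs, labelled DNA-PKcs PQR/PQR, and enter a single comparison. All were CD43- splenic B cells of strain 129 mice with preassembled IgH and IgK loci, activated in culture for 4 days by IL-4 (20 ng/mL) together with anti-CD40 (1 ng/mL). Genomic DNA was analysed by high-throughput genome-wide translocation sequencing (HTGTS), in which a primer at the 5′ end of Sμ, the bait, is extended into the sequence to which that end was joined, the prey. The assay reads DNA, so the cell type could not be checked against expressed markers, and the labels do not say whether the samples came from separate mice. Wild-type cells are not analysed here.

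Class switch recombination replaces the constant region of an antibody by joining a break in Sμ to a break in a downstream S region. Breaks follow deamination of cytosine by activation-induced deaminase (AID), which prefers AGCT, a motif frequent in S regions. The ends are normally sealed by classical non-homologous end joining, in which DNA-PKcs binds DNA ends with Ku and activates the nuclease Artemis. Ends joined in other ways often share a few bases at the junction, called microhomology (MH). A join with no shared and no added base is direct, and one with unaligned bases between bait and prey carries an insertion. Downstream of the bait, a prey on the strand of the bait gives a deletion between the 2 breaks, and one on the opposite strand gives an inversion. The words deletional and inverted name these strands at every position in IgH, also upstream of the bait. Joining within Sμ changes no isotype.

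Every junction compared here begins in the bait and ends in 1 of the 5 regions, so the bait is shown with 1 junction from each S region of replicate 5. The bait is the consensus of 714 reads of IgH junctions, in which each base had at least 97.8% of the reads that reached it (27 at the fewest), and lies on the minus strand at chr12:114669148-114669257 of mm9. Capitals mark AGCT, which is the same on both strands and starts at bases 64 and 85 from the primer start. AGCT occurs in 41.7% of RefSeq mouse promoter windows of 110 bases (GRCm38.p6) and at least 2 times in 10.8%. The first 2 lines are the primers of the study.
Sμ biotin primer: cagacctgggaatgtatggt
Sμ nested primer: cacacaaagactctggacctc
bait: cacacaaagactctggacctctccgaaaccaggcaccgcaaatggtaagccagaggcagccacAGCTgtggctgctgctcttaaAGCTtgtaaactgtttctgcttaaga

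The junctions with the longest MH in replicate 5 show what the authors' alignments call MH, in capitals, with 25 bases on each side. That of Sε has an MH of 11 bp and a deletional prey at chr12:114511992-114512181. That of Sγ1 has 9 bp and a deletional prey at chr12:114567302-114567495, and is 1 of 2 of this length. That of Sμ has 10 bp and an inverted prey at chr12:114669184-114669234, within the genomic span of the bait itself. The overlap differs from the bait consensus by G45C in the Sε junction and by G33C in the Sμ junction, counted from the primer start with the consensus base first. As the Sμ prey lies within the span of the bait, its overlap can also be read against the consensus there, and it differs there too.
Sε junction: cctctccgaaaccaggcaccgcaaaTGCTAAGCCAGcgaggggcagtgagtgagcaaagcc
Sγ1 junction: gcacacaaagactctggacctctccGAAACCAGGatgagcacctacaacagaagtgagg
Sμ junction: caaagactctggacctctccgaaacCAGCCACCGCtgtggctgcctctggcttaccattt

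Some long MH was thus an overlap with a mismatch. The counts that follow compare overlaps with the bait side alone, so mismatches with the prey side are not in them. No mismatch with the consensus occurred in replicate 5 among 44 Sμ, 35 Sγ1 and 15 Sε overlaps of 4 to 5 bp. Among overlaps of 6 bp or more, 1 of 5 in Sμ, 0 of 11 in Sγ1, 1 of 5 in Sε and 1 of 29 in non-IgH had one. In the rest of the pool 7 of 54 Sμ overlaps of 6 bp or more had a mismatch, and 0 of 450 of 4 to 5 bp.

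The rest of the pool was not uniform, and its structure bears on every value of Sγ1. The read names and the first 6 bases of the reads divide the pooled lists into 5 read sets, of which 1 has the run and tag (these bases) of replicate 5. Sets 1 to 4 are called read sets because the labels do not name them, and no test treats them as replicates. Sets 1 and 2 held 1423 and 1612 listed Sμ lines, and sets 3 and 4 held 59 and 76. Sets 1 to 3 came from 1 sequencing run, set 4 from another, and replicate 5 from neither of these runs. Distinct Sμ junctions with the same ends were few between sets, with 50 shared by set 1 (3.59% of its 1394) and set 2 (3.13% of its 1597). The pooled lines of the run and tag of replicate 5, which include lines outside its own workbook, held 338 distinct Sμ junctions. They shared 15 of these with set 1 and 10 with set 2, and 0 Sε junctions with either.

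Within each set the order of prey positions restarts, so that a first-pass block is followed by appended lines. The workbook of replicate 5 holds its first-pass lines alone. The pool holds further lines of its run and tag, 380 in Sγ1, 51 in Sμ and 11 in other IgH, and these are part of the rest as defined. In sets 1 to 4, appended lines made up 73.0% of Sγ1 (4915 of 6733), 15.3% of Sμ (484 of 3170), 15.8% of other IgH (57 of 360) and 3.21% of Sε (17 of 529). Of the 6733 Sγ1 lines of these sets, 1818 were therefore first-pass. With both strands together, the appended Sγ1 lines had a median distance of 95925 bp from the primer start. It was 100157 bp in first-pass lines and 100777 bp in replicate 5. Deletional appended lines lay closer to the bait than deletional first-pass lines (95948.5 bp against 100396 bp). Inverted appended lines lay farther from it than inverted first-pass lines (95573 bp against 91080 bp). Between the quartiles of the appended lines, chr12:114571766-114575185, lay 5 of the 211 junctions of replicate 5, 89 of the 1818 first-pass lines and 2457 of the 4915 appended lines. The list of Sγ1 junctions of the pool was not used here, so the classes of its first-pass and appended lines cannot be told apart, while strand and position can. What the appended lines are was not tested.

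**Figure D1:**
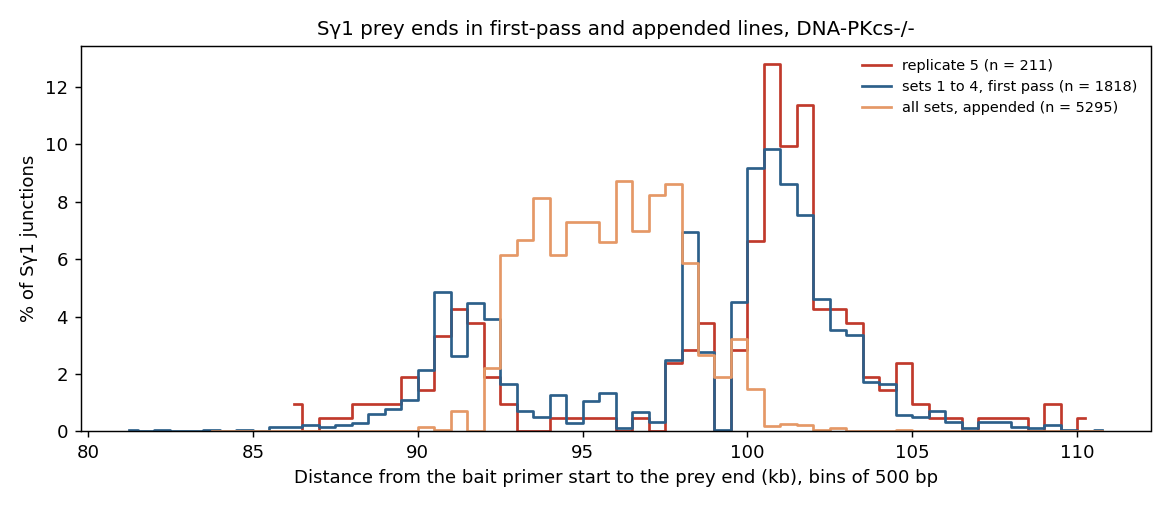
Distance from the bait primer start to the prey end of Sγ1 junctions (x axis, kb, bins of 500 bp) as a share of the junctions of each line type (y axis, percent), with the 380 appended lines of the run of replicate 5 added to the 4915 of sets 1 to 4. Replicate 5 and the first-pass lines of sets 1 to 4 have 2.37% and 4.90% of their ends between the quartiles of the appended lines of sets 1 to 4, which hold 2457 of those 4915.

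Each pair of regions was compared in 6 readouts by two-sided Fisher's exact tests on junction counts, in replicate 5 and in the rest separately, with Benjamini-Hochberg adjustment over all 112 tests. Calls required an adjusted p under 0.05 and the same sign in both sets. Of 56 comparisons 21 were called (37.5%). Pairs of S regions gave 6 of 18, an S region against other IgH 3 of 18, and non-IgH against any other region 12 of 20. By readout, 4 of 10 were called for direct joins, 2 for MH, 3 for MH of 4 bp or more, 4 for that share among MH junctions, 4 for insertions, and 4 of 6 for inverted joins. Reads carried no molecular identifiers, and the tests compare sets of junctions, not animals, so intervals and p-values cover counting error only.

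**Figure D2:**
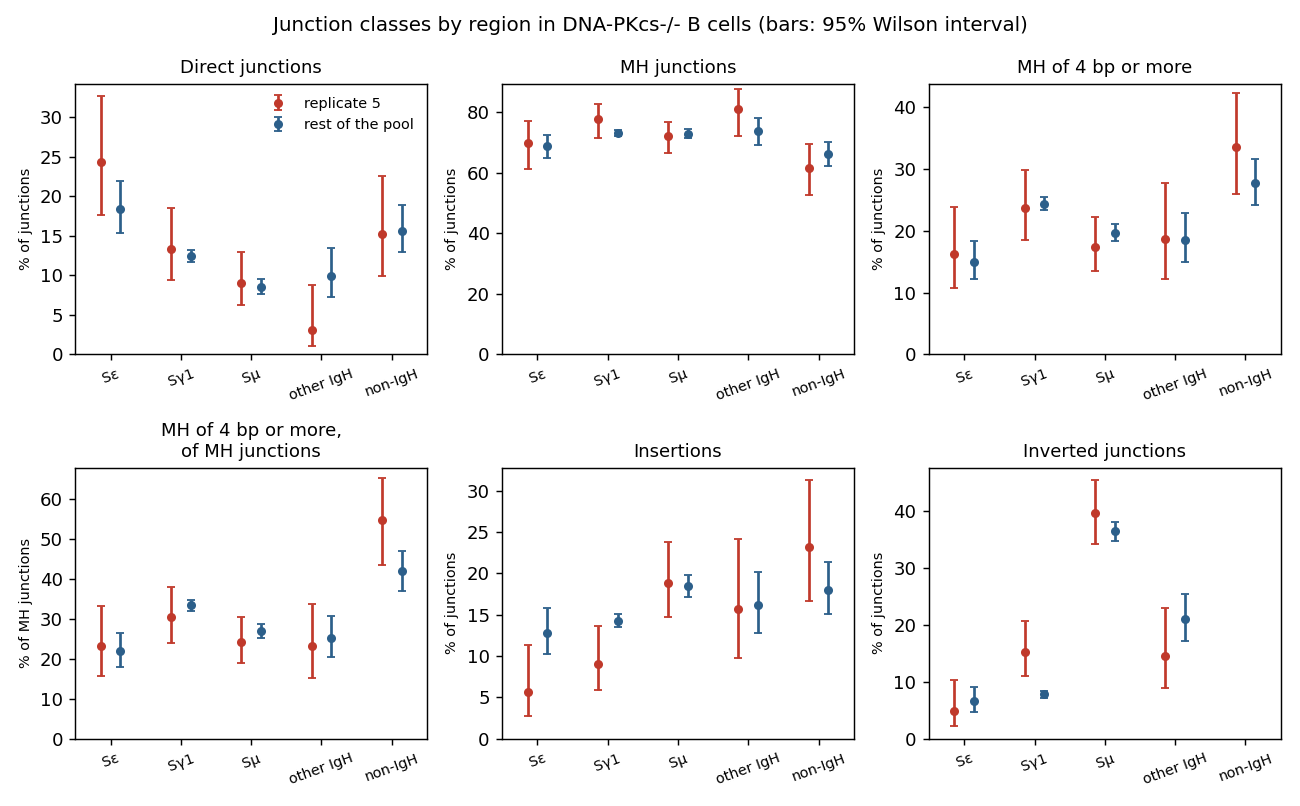
Share of each junction class (y axes, percent) in 5 regions (x axes) in replicate 5 (red, left of each pair) and the rest of the DNA-PKcs-/- pool (blue), with 95% Wilson intervals. Direct joins are highest in Sε, inverted joins in Sμ, and MH of 4 bp or more in non-IgH in both sets, and non-IgH has no strand in the count sheets.

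Sε junctions were more often direct than Sμ and Sγ1 junctions. In replicate 5, 24.4% of Sε junctions were direct (30 of 123, 95% CI 17.7 to 32.7), 13.3% of Sγ1 (28 of 211, 9.34 to 18.5) and 9.06% of Sμ (26 of 287, 6.26 to 12.9). In the rest, 18.4% of Sε (98 of 533, 15.3 to 21.9), 12.4% of Sγ1 (883 of 7113, 11.7 to 13.2) and 8.52% of Sμ (276 of 3240, 7.61 to 9.53) were direct. The order Sε, Sγ1, Sμ was thus the same in both sets. Sε exceeded Sμ by 15.3 points in replicate 5 (7.55 to 24.1, adjusted Fisher's exact p = 3.09e-04) and by 9.87 points in the rest (6.65 to 13.5, adjusted p = 1.53e-09). It exceeded Sγ1 by 11.1 points in replicate 5 (2.58 to 20.3, adjusted Fisher's exact p = 0.0255) and by 5.97 points in the rest (2.81 to 9.56, adjusted p = 6.34e-04). The difference of Sγ1 from Sμ had an adjusted p of 3.80e-08 in the rest and of 0.222 in replicate 5 and was not called.

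The direct share of Sε was alike in the 2 large read sets. First-pass Sε lines were direct in 24.6% of replicate 5 (30 of 122 listed, 17.8 to 32.9), 18.2% of set 1 (48 of 264, 14.0 to 23.3) and 18.1% of set 2 (41 of 227, 13.6 to 23.6). First-pass Sμ lines were direct in 9.06% of replicate 5, 9.34% of set 1 (111 of 1188) and 7.82% of set 2 (109 of 1394). In each of these sets the Sε interval lay above the Sμ interval. Sμ gave 1 direct join of 48 in set 3 and 7 of 56 in set 4, while Sε had 18 and 3 lines there, too few to be given a share.

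**Figure D3:**
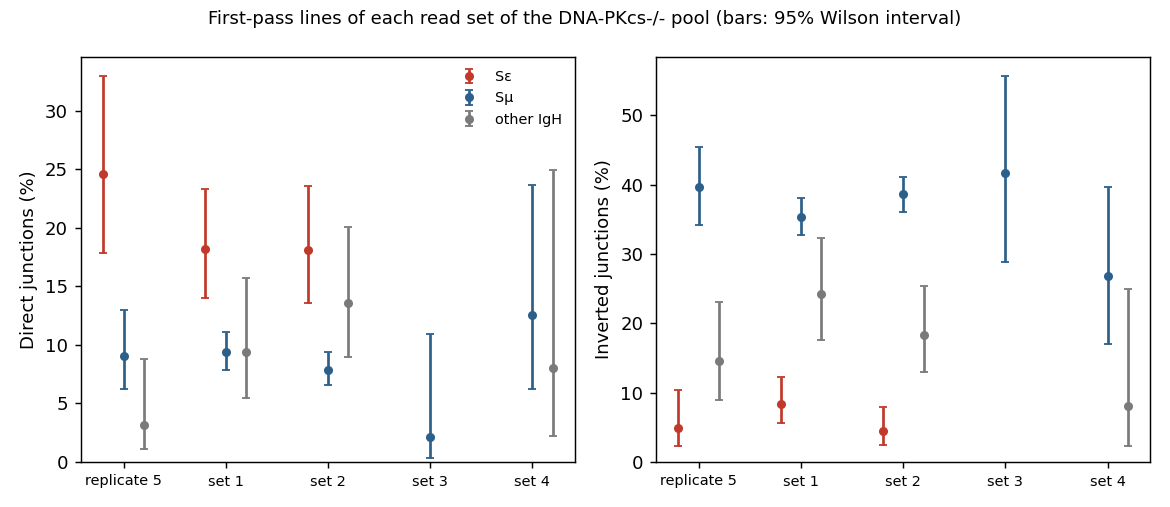
Share of direct (left) and inverted (right) joins (y axes, percent) among first-pass lines of each read set (x axis) in Sε, Sμ and other IgH, with 95% Wilson intervals, for at least 20 lines. In replicate 5, set 1 and set 2, Sε lies above Sμ in direct joins and below it in inverted joins.

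Inverted joins were most frequent in Sμ and rare in Sε. In replicate 5 they made up 4.88% of Sε junctions (6 of 123, 2.25 to 10.2), 15.2% of Sγ1 (32 of 211, 11.0 to 20.6), 39.7% of Sμ (114 of 287, 34.2 to 45.5) and 14.6% of other IgH (14 of 96, 8.89 to 23.0). In the rest they made up 6.57% of Sε (35 of 533, 4.76 to 9.00), 7.77% of Sγ1 (553 of 7113, 7.17 to 8.42), 36.5% of Sμ (1182 of 3240, 34.8 to 38.2) and 21.0% of other IgH (78 of 372, 17.1 to 25.4). Sμ stood above each of the others in both sets. The Sμ window reaches upstream of the primer start, while those of Sε and Sγ1 lie wholly downstream of it. With distances upstream counted as negative, the lower quartile was -180 bp for inverted Sμ preys of replicate 5 and 520 bp for deletional ones. In first-pass lines of the rest it was -219 bp and 429 bp. The inverted share of Sμ without its upstream preys was not tested. The difference of Sε from Sμ was -34.8 points in replicate 5 (adjusted Fisher's exact p = 3.17e-13) and -29.9 points in the rest (adjusted p = 6.79e-51). That of Sγ1 from Sμ was -24.6 points in replicate 5 (adjusted Fisher's exact p = 2.17e-08) and -28.7 points in the rest (adjusted p = 2.41e-265). Sμ also exceeded other IgH, by 25.1 points in replicate 5 (adjusted Fisher's exact p = 1.88e-05) and 15.5 points in the rest (adjusted p = 1.41e-08). The difference of Sε from other IgH was -9.71 points in replicate 5 (adjusted Fisher's exact p = 0.0368) and -14.4 points in the rest (adjusted p = 3.41e-09).

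Sγ1 had a higher inverted share than Sε in both sets, but the difference passed in replicate 5 alone. The adjusted Fisher's exact p was 0.0101 in replicate 5, at 15.2% in Sγ1, and 0.440 in the rest, at 7.77%. Among first-pass Sγ1 lines of sets 1 to 4, 12.0% were inverted (218 of 1818, 10.6 to 13.6), and among their appended lines 6.53% (321 of 4915, 5.87 to 7.26). By set, first-pass Sγ1 lines were inverted in 12.9% of set 1 (97 of 752) and 11.2% of set 2 (112 of 1003). First-pass Sε lines were inverted in 6.84% of sets 1 to 4 (35 of 512, 4.96 to 9.36), 8.33% of set 1 (22 of 264) and 4.41% of set 2 (10 of 227). Sγ1 thus stood above Sε in first-pass lines of sets 1 and 2 as in replicate 5, which was not tested. Sets 3 and 4 had 18 and 3 first-pass Sε lines, too few to be given a share. In Sμ the appended lines of replicate 5's own run were inverted in 28 of 51, and those of sets 1 to 4 in 31.8% (154 of 484), beside 37.0% of their first-pass lines.

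Insertions were less frequent in Sε and Sγ1 than in Sμ. In replicate 5 they were found in 5.69% of Sε junctions (7 of 123, 2.78 to 11.3), 9.00% of Sγ1 (19 of 211, 5.84 to 13.6) and 18.8% of Sμ (54 of 287, 14.7 to 23.7). In the rest the shares were 12.8% in Sε (68 of 533, 10.2 to 15.9), 14.3% in Sγ1 (1014 of 7113, 13.5 to 15.1) and 18.5% in Sμ (598 of 3240, 17.2 to 19.8). Sμ was the highest S region in both sets. The difference of Sε from Sμ was -13.1 points in replicate 5 (-18.8 to -6.19, adjusted Fisher's exact p = 0.00160) and -5.70 points in the rest (-8.61 to -2.34, adjusted p = 0.00354). That of Sγ1 from Sμ was -9.81 points in replicate 5 (-15.7 to -3.63, adjusted Fisher's exact p = 0.00553) and -4.20 points in the rest (-5.79 to -2.66, adjusted p = 6.20e-07). With deletional junctions alone the Sε difference was no longer called, at -8.77 points averaged over both sets, against -9.41 points with all junctions.

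Most insertions in the S regions were short. Insertions of 1 to 2 bp made up 18 of 54 in Sμ of replicate 5 and 36.6% in Sμ of the rest (219 of 598), and 8 of 19 in Sγ1 of replicate 5 and 39.0% in Sγ1 of the rest (395 of 1014). Insertions of 11 bp or more made up 6 of 54 in Sμ of replicate 5 and 19.6% in the rest (117 of 598). In Sε there were 7 insertions in replicate 5, of which 1 was 11 bp or longer, and 68 in the rest, of which 13 were. The authors list larger events in a separate sheet, which holds 8 lines of replicate 5 and 259 of the rest. Their insertions ran from 30 bp to 79 bp in replicate 5 and to 189 bp in the rest, where the median was 77 bp. Non-IgH preys made up 6 of the 8 and 170 of the 259, and Sε 0 and 1.

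MH was found in most junctions of every region, and the share with any MH was not called between S regions. In replicate 5, MH was found in 69.9% of Sε junctions, 77.7% of Sγ1 and 72.1% of Sμ. In the rest it was found in 68.9%, 73.3% and 73.0% of the same regions. With insertions left out of the denominators, the lower share of Sε was called against Sγ1 and Sμ. The differences were then -8.94 and -12.7 points averaged over both sets, against -6.14 and -3.19 points with insertions in. Without insertions every junction is either direct or MH. These calls therefore repeat the direct-join differences and are no separate result on MH. The lengths were most often 2 to 3 bp, which covered 50.6% of MH junctions in Sγ1 (83 of 164) and 56.0% in Sμ (116 of 207) of replicate 5, and 47.6% and 56.1% in the rest. MH of 1 bp made up 26.7% of MH junctions in Sε (23 of 86, 18.5 to 36.9), 18.9% in Sγ1 and 19.8% in Sμ of replicate 5. In the rest these shares were 26.4% (97 of 367, 22.2 to 31.2), 19.1% and 16.9%.

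Long MH did not pass between S regions in replicate 5, while it did in the rest with appended lines included. MH of 4 bp or more was found in 16.3% of Sε junctions (20 of 123, 10.8 to 23.8), 23.7% of Sγ1 (50 of 211, 18.5 to 29.9) and 17.4% of Sμ (50 of 287, 13.5 to 22.2) in replicate 5. In the rest it was found in 15.0% of Sε (80 of 533), 24.4% of Sγ1 (1736 of 7113) and 19.7% of Sμ (637 of 3240). Sγ1 was the highest in both sets. For Sε below Sγ1 the adjusted Fisher's exact p was 0.193 in replicate 5 and 2.52e-06 in the rest, for Sε below Sμ 0.919 and 0.0243, and for Sγ1 above Sμ 0.147 and 6.20e-07. MH of 6 bp or more made up 7.32% of MH junctions in Sγ1 of replicate 5 (12 of 164, 4.23 to 12.4) and 14.1% in the rest (734 of 5216, 13.2 to 15.0), beside 5.81% and 4.90% in Sε and 2.90% and 3.47% in Sμ. The Sγ1 and Sμ values of the rest include the appended lines. Sμ lines of set 1 had MH of 4 bp or more in 31.9% of appended (75 of 235) and 19.0% of first-pass lines (226 of 1188). In set 2 these shares were 22.9% (50 of 218) and 17.6% (245 of 1394). First-pass Sε lines had it in 15.2% of set 1 (40 of 264) and 16.3% of set 2 (37 of 227).

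**Figure D4:**
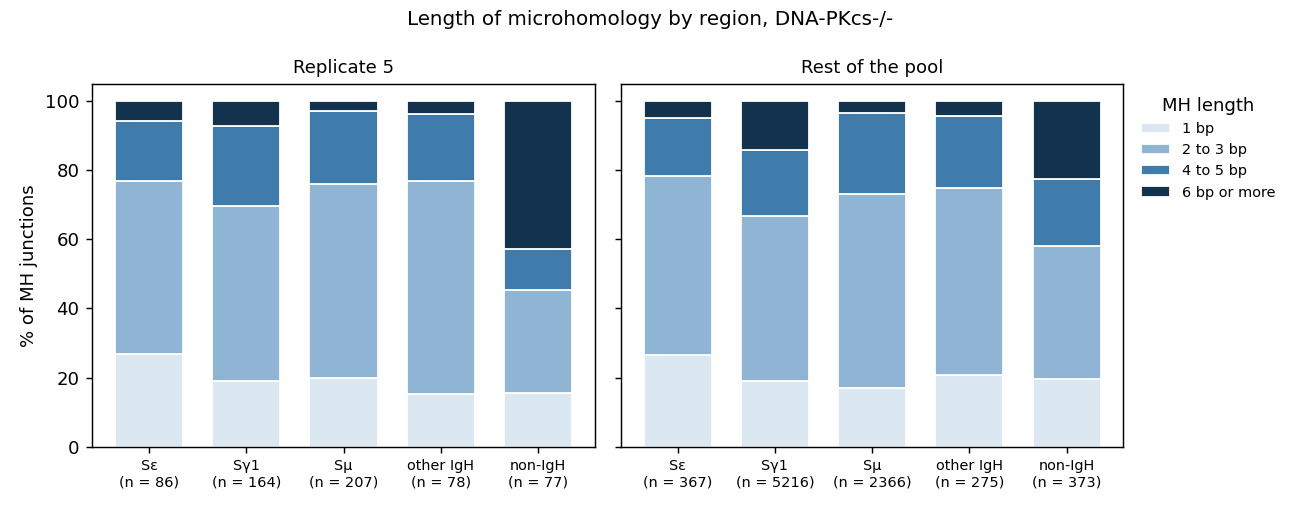
Length of MH as a share of MH junctions (y axis, percent) by region (x axis, with the number of MH junctions) in replicate 5 (left) and the rest of the DNA-PKcs-/- pool (right). MH of 6 bp or more makes up 42.9% of non-IgH MH junctions in replicate 5 and 22.5% in the rest, and 2.90% to 7.32% in the S regions of replicate 5.

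The bases of long MH included the AGCT of the bait. In replicate 5 the most frequent MH of 4 bp or more was AGCTG in Sμ (8 of 50), followed by CACC (4). In Sγ1 it was AGCT (4 of 50), followed by CAGC (3), and in Sε GCTG (4 of 20), followed by AGCT (2). In the rest AGCTG (66 of 617) and AGCT (57) led in Sμ, and AGCT and GCTG (6 of 79 each) in Sε. MH of 4 bp or more contained AGCT in 32.0% of Sμ (16 of 50, 20.8 to 45.8), 18.0% of Sγ1 (9 of 50, 9.77 to 30.8) and 20.0% of Sε (4 of 20, 8.07 to 41.6) in replicate 5. In the rest it did so in 29.5% of Sμ (182 of 617, 26.0 to 33.2) and 20.3% of Sε (16 of 79, 12.9 to 30.4). These shares were not tested.

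Long MH in Sμ was most frequent with the bait end between the AGCT motifs. When the bait ended between base 64 and base 84, past the start of the first AGCT and before that of the second, MH was 4 bp or more in 31.0% of Sμ junctions of replicate 5 (22 of 71), against 15.1% (23 of 152) when it ended earlier. In the rest these shares were 32.6% (203 of 623) and 14.0% (190 of 1359). With the bait end at base 85 or later the share was 7.94% in replicate 5 (5 of 63), below that of early ends, and 19.4% in the rest (224 of 1157), above it. In Sε they were 9 of 28 and 10 of 70 in replicate 5, and 24.4% (29 of 119) and 10.2% (22 of 216) in the rest. In replicate 5 they ran the other way in Sγ1, with 9 of 43 and 30 of 117, and in other IgH, with 3 of 18 and 14 of 60. Other IgH of the rest ran as Sμ did, with 22.1% (15 of 68) and 14.8% (23 of 155). So did non-IgH of replicate 5, with 9 of 17 and 24 of 72. The bait ended at base 85 or later in 24 of 122 Sε, 50 of 210 Sγ1 and 63 of 286 Sμ junctions of replicate 5, and in 34.2% of Sε and 36.9% of Sμ junctions of the rest, so replicate 5 had shorter baits. These values describe the lists and were not tested.

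Other IgH junctions, between and beyond the S regions, had few direct joins in replicate 5. They were direct in 3.12% (3 of 96, 1.07 to 8.79) of replicate 5 and 9.95% of the rest (37 of 372, 7.30 to 13.4). Sε exceeded them by 21.3 points in replicate 5 (adjusted Fisher's exact p = 3.01e-05) and 8.44 points in the rest (adjusted p = 0.00160). Their difference from non-IgH, with 15.2% direct joins in replicate 5 and 15.7% in the rest, was -12.1 points in replicate 5 (adjusted Fisher's exact p = 0.00726) and -5.71 points in the rest (adjusted p = 0.0311). By read set, first-pass other IgH lines were direct in 9.38% of set 1 (12 of 128) and 13.6% of set 2 (20 of 147), and in 2 of 25 in set 4. Of the 3 direct joins of replicate 5, 1 lay beyond Sε, 1 between Sε and Sγ1, and 1 between Sγ1 and Sμ. Joins upstream of Sμ were inverted in 5 of 5 in replicate 5 and in 34 of 51 in the rest, while those between Sε and Sγ1 were inverted in 4 of 43 and 14 of 140. Beyond Sε lay 27.1% of other IgH lines in replicate 5 (26 of 96) and 14.0% in the rest (52 of 371).

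Non-IgH junctions stood apart in the length of MH. Among MH junctions, MH was 4 bp or more in 54.5% of non-IgH (42 of 77, 43.5 to 65.2) in replicate 5 and 41.8% (156 of 373, 36.9 to 46.9) in the rest. Every IgH region was lower in both sets, from 23.1% to 30.5% in replicate 5 and from 21.8% to 33.3% in the rest, with adjusted Fisher's exact p from 2.00e-05 to 0.00194 in replicate 5 and from 5.22e-08 to 0.00319 in the rest. MH of 6 bp or more made up 42.9% of non-IgH MH junctions in replicate 5 (33 of 77, 32.4 to 54.0) and 22.5% in the rest (84 of 373, 18.6 to 27.0). Sγ1 and other IgH had MH more often than non-IgH, by 16.1 points (Sγ1) and 19.65 points (other IgH) in replicate 5 and by 6.96 and 7.55 points in the rest. Sε and Sγ1 had fewer insertions than non-IgH, which had 23.2% in replicate 5 (29 of 125) and 18.0% in the rest (101 of 562).

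Preys outside IgH were shorter in replicate 5, and insertions there moved with prey length. An aligned prey under 50 bp was found in 41.5% of listed non-IgH junctions (44 of 106, 32.6 to 51.0), against 9.84% in Sε, 16.1% in Sγ1 and 22.3% in Sμ. Insertions were found in 18 of 44 short non-IgH preys and 3 of 62 longer ones (4.84%). In Sγ1 they were found in 1 of 34 short and 18 of 177 longer preys (10.2%), in Sμ in 13 of 64 and 41 of 223 (18.4%), and in Sε in 3 of 12 and 4 of 110 (3.64%). Among listed preys of 50 bp or more, non-IgH thus had a lower insertion share than Sγ1, the opposite of the called difference over all junctions. The list of replicate 5 lacks 19 of its 125 non-IgH junctions, 8 of them among the 29 with insertions. MH of 6 bp or more was found in 5 of 19 MH junctions with short non-IgH preys and in 27 of 54 with longer ones, against 11 of 137 with longer preys in Sγ1 and 6 of 158 in Sμ. The part of prey length in the non-IgH differences was not tested, and the non-IgH list of the rest was not used here.

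Non-IgH preys of replicate 5 were spread over many chromosomes. Chromosome 12, outside the IgH locus, held 16 of the 106 listed, of which 13 had MH, 3 were direct and none had an insertion. Chromosome 2 held 8, with 4 MH joins and 4 insertions, and chromosomes 9 and 11 held 7 each. The plus strand held 52.8% of all (56 of 106, 43.4 to 62.1).

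Inverted and deletional joins of the same region were compared in 4 readouts, and 0 of 16 comparisons were called in both sets (0%), with 5 of 32 Fisher's exact tests at an unadjusted p below 0.05. In the rest alone, inverted Sγ1 joins were less often direct (40 of 553, 7.23%) than deletional ones (843 of 6560, 12.9%, adjusted Fisher's exact p = 0.00169). Replicate 5 had 3 of 32 and 25 of 179 there, a difference of -4.59 points with an interval from -13.1 to 10.9. In the rest inverted Sμ joins had more insertions (256 of 1182, 21.7%) than deletional ones (342 of 2058, 16.6%, adjusted Fisher's exact p = 0.00667), and replicate 5 had 22 of 114 and 32 of 173, a difference of 0.801 points (-8.14 to 10.4). In Sε such a comparison rests on 6 inverted junctions in replicate 5.

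Prey position within an S region was compared at its median coordinate, in direct joins and in MH of 4 bp or more. Farther preys are those downstream of that coordinate, so Sμ preys upstream of the primer start count as nearer at any distance. The strands were not separated. In first-pass Sμ lines of sets 1 to 4, the median distance was 394 bp for inverted and 1176 bp for deletional preys. Of 10 Fisher's exact tests 1 was called (10%). In Sμ of the rest, farther preys had MH of 4 bp or more in 23.6% (380 of 1610), against 15.7% (253 of 1611) of nearer preys (adjusted Fisher's exact p = 1.67e-07). In replicate 5 the shares were 21.0% (30 of 143) and 13.9% (20 of 144), a difference of 7.09 points (-1.74 to 15.9, adjusted Fisher's exact p = 0.611). Without appended lines the shares of the rest were 22.3% and 13.8%. With the border at the middle of the 5th to 95th percentile range they were 21.0% and 19.1%, and the call was lost (adjusted Fisher's exact p = 0.690). In Sε the direct share was 21.3% of farther and 27.9% of nearer preys in replicate 5, and 18.6% and 18.1% in the rest.

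Replicate 5 was then set against the rest, region by region. Of 29 Fisher's exact tests 1 was called (3.45%), and 5 had an unadjusted p below 0.05. The called one was the inverted share of Sγ1, at 15.2% in replicate 5 and 7.77% in the rest (adjusted Fisher's exact p = 0.0117). Against the first-pass lines of sets 1 to 4, at 12.0%, its adjusted Fisher's exact p was 0.277, and against their appended lines, at 6.53%, it was 4.32e-05. Both were adjusted within a separate group of 12 tests of first-pass and appended lines. The rest also holds 380 appended Sγ1 lines of the run and tag of replicate 5, of which 14 were inverted (3.68%). The called difference is thus in part between lines of the same run and tag. Replicate 5 with these lines added was not tested. The unadjusted differences were fewer insertions in Sε and Sγ1, fewer direct joins in other IgH and longer MH among non-IgH MH junctions in replicate 5, each at an adjusted exact p of 0.256, with MH counted as long from 4 bp. With MH counted as long from 6 bp, the non-IgH difference was called, at 42.9% of MH junctions in replicate 5 and 22.5% in the rest (adjusted Fisher's exact p = 0.00753), and at 26.4% of all junctions in replicate 5 and 14.9% in the rest (adjusted p = 0.0342). In Sμ no readout differed by more than 3.24 points, and the interval of the difference in direct joins ran from -2.44 to 4.53 points. The gaps between regions were tested for a difference between replicate 5 and the rest by Zelen's exact test, and 0 of 56 were called (0%), with 10 at an unadjusted p below 0.05. The smallest adjusted p was 0.0743, for the inverted gap of Sγ1 and other IgH, 0.583 points in replicate 5 and -13.2 points in the rest.

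The 5 regions took different shares of the junctions in replicate 5 and in the rest, and for Sγ1 and Sμ the difference changed without appended lines. All 5 shares differed by Fisher's exact test (100% called). Sγ1 held 25.1% of replicate 5 (211 of 842, 22.2 to 28.1) and 60.2% of the rest (7113 of 11820, 59.3 to 61.1). Among S region junctions in first-pass lines, Sγ1 held 34.0% of replicate 5 (211 of 621, 30.4 to 37.8) and 36.2% of sets 1 to 4 (1818 of 5016, 34.9 to 37.6, adjusted Fisher's exact p = 0.383). Sμ held 46.2% of replicate 5 (42.3 to 50.1) and 53.5% of sets 1 to 4 (52.2 to 54.9, adjusted Fisher's exact p = 0.00129), a difference of -7.33 points, where with all lines of the rest it was 16.6 points over the same S region junctions. Sε held 19.8% of replicate 5 (16.9 to 23.1) and 10.2% of sets 1 to 4 (9.40 to 11.1, adjusted Fisher's exact p = 1.12e-10), with 12.0% in set 1 and 8.65% in set 2. Of the appended S region lines of sets 1 to 4, 90.7% were in Sγ1 (4915 of 5416). The shares add up to the whole and give no rate of joining.

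**Figure D5:**
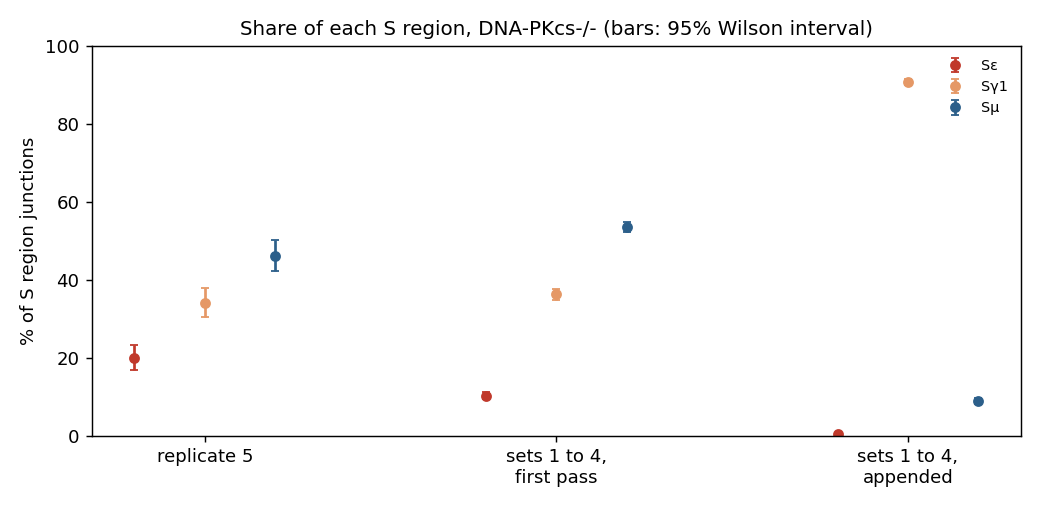
Share of each S region among S region junctions (y axis, percent) in replicate 5 and in first-pass and appended lines of sets 1 to 4 of the DNA-PKcs-/- pool (x axis), with 95% Wilson intervals. Sγ1 holds 34.0%, 36.2% and 90.7%, and the Sε share of replicate 5, 19.8%, lies above 10.2% in first-pass lines.

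The gaps between S regions in replicate 5 were compared with those in each PQR/PQR library by Zelen's exact test, and 0 of 18 were called against both (0%), with 7 of 36 tests at an unadjusted p below 0.05. The smallest p was that of direct joins. Sε exceeded Sμ by 15.3 points in DNA-PKcs-/- replicate 5, against -1.95 points in PQR/PQR replicate 1 (25.2% in Sε and 27.1% in Sμ) and 0.410 points in PQR/PQR replicate 2 (36 of 144 in Sε and 30 of 122 in Sμ). The adjusted exact p was 0.00332 against PQR/PQR replicate 1, which was read in the same run, and 0.0797 against PQR/PQR replicate 2. For insertions the gap was -13.1 points in replicate 5, against 1.20 points in PQR/PQR replicate 1 (adjusted Zelen's exact p = 0.0132) and 0.455 points in PQR/PQR replicate 2 (adjusted p = 0.163). These 2 gaps were called when PQR/PQR replicate 2 was left out. The rule then asks for PQR/PQR replicate 1 alone, so these calls repeat the comparison with it and add no support. The inverted gap of Sε and Sμ was -34.8 points in replicate 5, against -13.9 points in PQR/PQR replicate 1 (adjusted Zelen's exact p = 0.237) and -29.2 points in PQR/PQR replicate 2 (adjusted p = 0.861). Both comparisons share the library of replicate 5, and they compare libraries, not genotypes.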

How the data were processed

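Junctions were mapped by HTGTS with a MiSeq, per the labels' protocols. Bowtie2 and mm9 are named per the submitters' processing notes. Its version and the junction caller were not given in the sources used here. In the deposited sheets the authors give junction counts by region, strand and length bin, and the other deposited values are alignment bounds and positions in mm9, with no normalization stated. Counts of replicate 5 were subtracted from those of the authors' pool. Classes recomputed from the lists differed from the sheets only by lines not used here (1 Sε and 19 non-IgH lines of replicate 5, and 4 Sε, 19 Sμ and 1 other IgH lines of the rest). Fisher's exact test and Zelen's exact test (scipy 1.17.1), Wilson intervals at 95% and Newcombe intervals of differences were used, with p-values adjusted by Benjamini-Hochberg within each of 7 families. Replicate 5 was also tested against first-pass and appended lines, in inverted share and in share of S region junctions. These 12 tests were adjusted on their own and were chosen after seeing the data. Non-IgH counts carry no strand, so 112 of 120 planned tests of region pairs could be run. A count of 0 allows 3 counts of the total. The tests were checked on simulated data. Settings named in the closing section were varied. Members and lists were chosen with earlier results of these data known. The labels do not say whether samples come from separate mice. The named items were all 5 regions, read sets of at least 20 lines, the 3 leading chromosomes, and the sequences with the longest and the 2 most frequent MH per S region.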

Additional observations from a re-analysis of the deposited data

Results flagged for a closer look

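The DNA-PKcs-/- pool held lines of the sequencing run and tag of replicate 5 that its own workbook does not hold. They numbered 380 in Sγ1, 51 in Sμ and 11 in other IgH, and lie outside the data used for replicate 5. In Sγ1, 14 of the 380 were inverted (3.68%, 95% CI 2.21 to 6.09), against 32 of the 211 in its own workbook. Of the 380, 50.5% lay between chr12:114571766-114575185, where 2.37% of its own workbook lay.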

How the results depend on the processing

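Of the 56 region comparisons, 21 were called, and between 20 and 24 were called with the whole pool in place of the rest, with replicate 5 alone, with MH counted as long from 6 bp, without insertions in the denominators or with large insertions added. Without insertions in the denominators, the direct and MH comparisons of a pair of regions are the same test and are counted separately. Deletional junctions alone gave 14 of 50, the rest alone (without replicate 5) 34, MH counted from 2 bp 13, and Bonferroni adjustment 8. The whole pool holds replicate 5 itself, and either set alone drops 1 of the 2 required conditions. All 21 calls recurred in each of these settings, which are no independent check. With MH from 2 bp the differences of Sμ and of other IgH from non-IgH in long MH, averaged over both sets, reversed, to 6.55 and 11.0 points. Over Sε, Sμ and other IgH, 6 of 18 were called, and 5 with repeated junctions collapsed, with 50 bp or more of prey, with first-pass lines or with the run of sets 1 to 3. In place of the rest, set 1 gave 3, set 2 gave 4, and set 3, set 4, its run and the appended lines of the run of replicate 5 gave 0, all with fewer junctions. With set 4, or its run, the insertion difference of Sε from Sμ, averaged over both sets, reversed to 0.259 points. That value rests on 3 Sε lines of set 4, of which 1 had an insertion, too few to be given a share. Read sets and first-pass lines were chosen after seeing the data. Replicate 5 against the rest gave 1 call, 3 with MH from 6 bp (the other 2 being long MH of non-IgH) and 0 without insertions in the denominators, where the inverted share of Sγ1 was 13.0% against 7.61% (adjusted Fisher's exact p = 0.214). Gaps between replicate 5 and the rest gave 0 calls, and 3 with MH from 6 bp (long MH of Sγ1 and non-IgH, in both denominators, and the inverted gap of Sγ1 and other IgH). The Sμ share of S region junctions reversed to -7.33 points with first-pass lines. The position call was lost (0) at the other border and with MH from 6 bp, where the difference reversed to -0.185 points. Gaps against PQR/PQR gave from 0 to 2 calls with 1 library left out. Orientation gave 0 under every setting tried. Apart from the smaller numbers of junctions, the causes of these changes were not tested. No paired analysis was possible because the groups share no replicate number. Replicate 5, with 96 to 287 junctions per region, limits what could be called in both sets.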
